A study of Mus musculus with 6 samples.

Results

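The circadian clock genes described here are 10 genes of the transcription loop that keeps daily time in mammalian cells. They are Clock, Per1, Per2, Per3, Cry1, Cry2, Nr1d1, Nr1d2, Dbp and Tef, taken by symbol from a deposited table of 31529 genes, in which all 10 were found. The libraries came from hearts of ICR mice, an outbred stock, labelled wild type, with 3 libraries at embryonic day 18.5 (E18.5) and 3 at embryonic day 16.5 (E16.5). No treatment is given for either stage. The design text calls the libraries biological replicates. The sources used here do not say whether a library holds 1 heart or several, or give the litter and the hour of collection. With no hour given for either stage, a difference between stages and a difference in clock phase cannot be told apart.

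In the clock, the proteins CLOCK and BMAL1 (gene Arntl) bind as a pair to E-box sequences and activate the Per and Cry genes. PER and CRY proteins gather in the cell and repress that pair. CLOCK and BMAL1 also activate Nr1d1 and Nr1d2, which encode the REV-ERB receptors that repress Arntl, against the activating ROR receptors at the same sites, and Dbp, whose protein acts with those of Tef and Hlf on D-box sequences. Adult mouse heart has a strong clock of this kind, whereas tissue clocks of the mouse embryo gain their rhythm gradually late in development.

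Estimated counts summed to between 61443414 and 71510191 in the E18.5 libraries and to between 67082123 and 77237333 in the E16.5 libraries. Counts of the clock genes ran from 760 to 6209 in a single library, and all 10 passed the filter on low counts. Genes of the mitochondrial chromosome took 25.2% to 33.5% of the counts at E18.5 and 19.9% to 41.4% at E16.5, and E16.5 replicate 2 held the lowest share. Levels between genes are given in FPKM, a value per transcript length and library total. The totals behind FPKM and behind CPM, a value per library total, both include the mitochondrial genes. Stages are compared in CPM, for which the totals were scaled by the TMM method. Cardiomyocyte markers summed to 4251 to 4766 FPKM at E18.5 and 2802 to 3960 FPKM at E16.5, so the defining genes of the labelled tissue were abundant. In CPM the cardiomyocyte sums of the stages overlapped. Summed markers of atrium, epicardium and smooth muscle were higher in every E18.5 library than in any E16.5 library in both FPKM and CPM, as were those of fibroblasts in CPM alone. Epicardial markers, for example, summed to 142 to 193 CPM at E18.5 and 85.8 to 99.2 CPM at E16.5, and the part of these cell types in the clock values was not tested. The most abundant markers carry such sums. Pdgfra and Dcn of the fibroblast list, Myl4 and Myl7 of the atrial list and Upk3b of the epicardial list overlapped between stages in CPM. The other listed markers of these cell types were each higher at E18.5 without overlap. In bulk tissue, fewer cells of a type and less RNA per cell cannot be told apart. Lung epithelium markers, led by Scgb1a1, summed to 101 to 199 FPKM at E18.5 and 103 to 162 FPKM at E16.5, with the stages overlapping.

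The start regions of Per1, Cry1, Nr1d1 and Per3 are shown because they hold DNA words of the kind through which clock factors are known to act. RefSeq windows of GRCm38.p6, from 250 bases before to 50 after a transcription start, were found for 9 of the 10 clock genes, and Per2 is named only. Each printed run is the 250 bases before the start, 5′ to 3′ on the gene's strand, and capitals mark the motif. In Per1 (chr11:69098699-69098948, plus strand) and Cry1 (chr10:85185055-85185304, minus strand) they mark the E-box, and in Cry1 and Nr1d1 (chr11:98775378-98775627, minus strand) the related E-prime box. In Per3 (chr4:151044666-151044915, minus strand) they mark a pair of D-boxes.
Per1: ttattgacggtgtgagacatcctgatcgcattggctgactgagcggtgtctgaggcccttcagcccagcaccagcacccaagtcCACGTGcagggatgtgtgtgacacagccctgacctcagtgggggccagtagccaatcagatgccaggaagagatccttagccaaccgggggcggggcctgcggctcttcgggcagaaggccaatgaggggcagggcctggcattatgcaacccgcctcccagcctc
Cry1: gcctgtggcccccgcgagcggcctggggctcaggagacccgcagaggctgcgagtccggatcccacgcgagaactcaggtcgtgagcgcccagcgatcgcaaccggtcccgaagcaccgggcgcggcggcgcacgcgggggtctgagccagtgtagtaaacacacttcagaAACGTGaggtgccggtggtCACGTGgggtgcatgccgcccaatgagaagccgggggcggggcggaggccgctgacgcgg
Nr1d1: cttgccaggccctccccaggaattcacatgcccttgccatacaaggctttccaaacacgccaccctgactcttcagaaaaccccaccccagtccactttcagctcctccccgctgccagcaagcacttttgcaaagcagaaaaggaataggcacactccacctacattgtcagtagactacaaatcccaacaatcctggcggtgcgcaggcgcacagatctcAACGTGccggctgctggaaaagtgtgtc
Per3: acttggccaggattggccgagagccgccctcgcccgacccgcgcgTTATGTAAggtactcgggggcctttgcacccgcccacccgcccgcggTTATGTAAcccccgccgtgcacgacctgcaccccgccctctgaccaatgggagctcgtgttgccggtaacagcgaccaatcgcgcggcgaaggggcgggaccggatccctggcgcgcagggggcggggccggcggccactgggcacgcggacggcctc

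The E-box was searched as CACGTG, the E-prime box as CACGTT and the D-box as TTANGTAA, and all motifs were searched on both strands. In Cry1 and Nr1d1 the E-prime box lies on the other strand, so the capitals show its reverse complement. The cAMP element was searched as TGACGTCA, and the ROR and REV-ERB element and the glucocorticoid element in longer forms with free positions, given here by name. Of 16 windows for 11 genes, Arntl and Npas2 included, 4 held the E-box, against 7.15% of all 32851 windows. These were the windows of Cry1, the first start of Per1 and both starts of Tef. The E-prime box lay in Cry1, Cry2 and Nr1d1, against 4.68% of all windows. The D-box lay in Per3, at positions -205 and -158 from the start, against 2.32% of all windows. The ROR and REV-ERB element lay in 1 Arntl window, against 0.7% of all windows. Neither the cAMP nor the glucocorticoid element had a match in the 16 windows. Sequence beyond these windows, and that of Per2, was not searched. A match describes letters only, and no binding was measured.

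**Figure D1:**
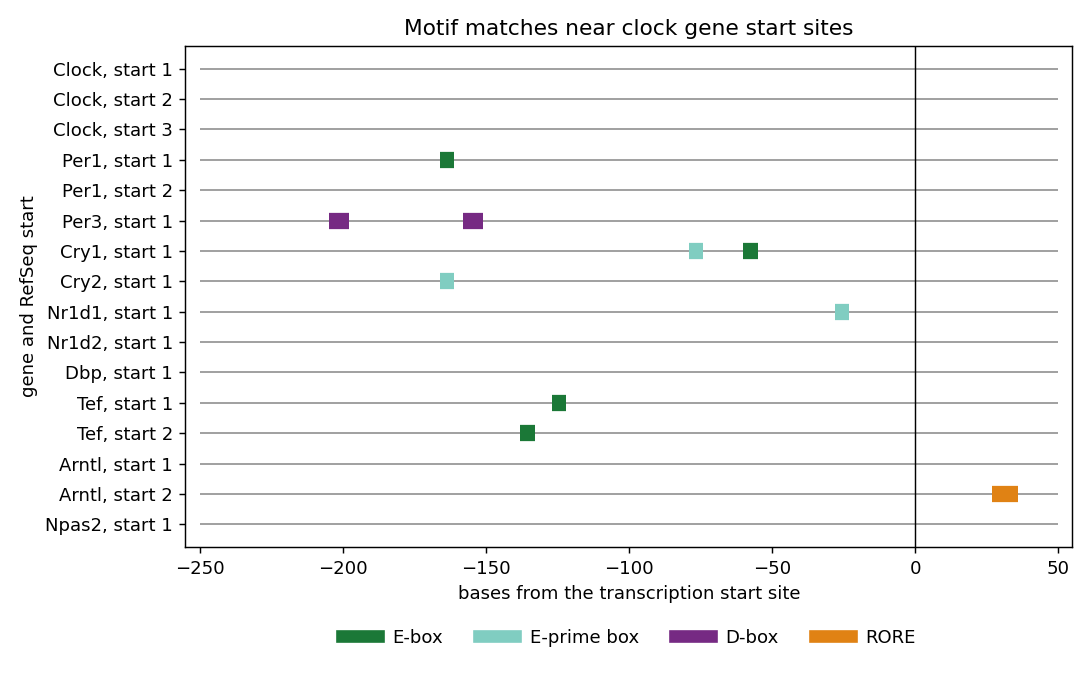
Positions of motif matches in the RefSeq windows of the clock genes and of Arntl and Npas2. The horizontal axis gives bases from the transcription start site, each grey line is the window of a single start, and coloured blocks are matches. Cry1 holds an E-prime box and an E-box, and Per3 holds 2 D-boxes.

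In FPKM, the clock genes lay in the middle and upper range of the heart transcriptome. Per2, with a mean of 11.6 FPKM over the 6 libraries, stood above 86.7% of the 19959 genes tested, and Clock, at 1.87 FPKM, above 49.7%. At E18.5, Per2 averaged 13.8 ± 2.61 FPKM (SD, n = 3), followed by Per1 at 11.1 ± 0.843, Tef at 9.41 ± 1.10, Nr1d2 at 6.89 ± 1.42, Nr1d1 at 6.65 ± 0.871, Cry1 at 6.06 ± 0.852, Dbp at 4.75 ± 0.690, Per3 at 2.55 ± 0.393, Clock at 2.16 ± 0.258 and Cry2 at 1.83 ± 0.148 FPKM. At this stage the ranges of neighbours in the order overlapped except between Tef and Nr1d2 and between Dbp and Per3. Within each E18.5 library, however, Per2 lay above Per1, Per1 above Tef, Cry1 above Dbp, Per3 above Clock and Clock above Cry2. Nr1d2 lay above Nr1d1 in 2 of the 3 libraries, and so did Nr1d1 above Cry1. At E16.5 the order was Per2 at 9.41 ± 1.70 FPKM, Tef at 8.66 ± 1.04, Per1 at 8.64 ± 1.36, Nr1d1 at 8.03 ± 1.52, Nr1d2 at 6.80 ± 1.62, Dbp at 4.70 ± 0.446, Cry1 at 4.24 ± 1.94, Per3 at 2.50 ± 0.502, Cry2 at 1.98 ± 0.355 and Clock at 1.58 ± 0.540 FPKM. Neighbours overlapped except between Nr1d2 and Dbp and between Cry1 and Per3. Within each E16.5 library Cry2 lay above Clock, the reverse of their order in each E18.5 library, which was not tested. The other overlapping neighbours changed order between the E16.5 libraries. Per2 led the order at both stages.

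**Figure D2:**
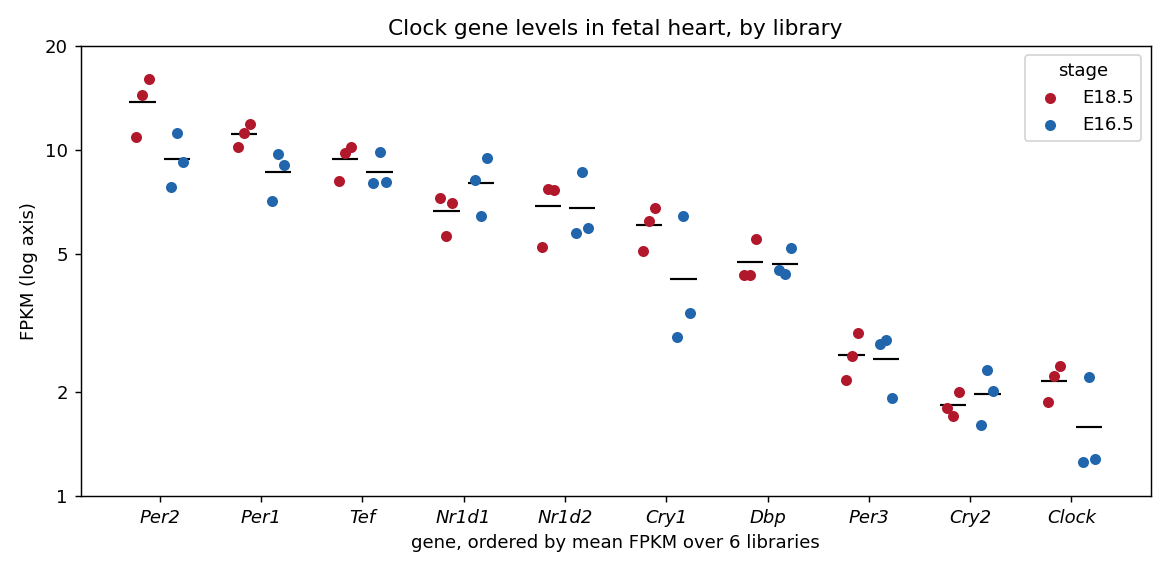
FPKM of the 10 clock genes in each library, on a log axis, with genes ordered by their mean over 6 libraries. Points are libraries, red for E18.5 and blue for E16.5, and black bars are stage means. Per2 averaged 13.8 FPKM at E18.5 and 9.41 FPKM at E16.5.

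The comparison of stages asks which genes of the heart differ between these days of late gestation. None of the 10 clock genes passed at an adjusted p under 0.05 (edgeR quasi-likelihood, Benjamini-Hochberg over all genes tested), where 0.15% of all tested genes passed, 0.0952% higher and 0.0551% lower at E18.5. At an unadjusted p under 0.05, 3 clock genes passed in edgeR (Clock, Per2 and Cry1), against 9.53% of all tested genes. DESeq2 and limma-voom also gave 3 unadjusted and 0 adjusted, with 1.58% of genes passing after adjustment in DESeq2. The unadjusted count was 1 with library size only and with limma on log2(FPKM + 0.1) or log2(FPKM + 1). It was also 1 without E18.5 replicate 2 or 3 or without E16.5 replicate 1 or 3. Without E18.5 replicate 1 it was 2, and with the mitochondrial share as a term or without E16.5 replicate 2 it was 4. Of the 10, 5 had a higher and 5 a lower mean at E18.5, with a median log2 change of -0.04, against -0.002 over all genes. With library size only, 7 were higher and 3 lower, and on log2(FPKM + 0.1) 8 were higher and 2 lower, with the median of all genes at 0.07 and 0.10. The E18.5 libraries lay above the E16.5 libraries without overlap for 4 clock genes (Clock, Per1, Per2 and Cry1), an order found for 8.45% of all tested genes. The opposite order, seen in 8.02% of tested genes, was found for 0 of the 10.

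Clock, which encodes the DNA-binding partner of BMAL1 (chromosome 5, 76209868 to 76304792), had 30.1, 30.6 and 32.1 CPM at E18.5, against 23.5, 27.0 and 21.0 CPM at E16.5. Every E18.5 library lay above every E16.5 library. A log2 change of 0.38 ± 0.14 (SE), with a 95% interval of 0.06 to 0.69, did not pass over all genes (edgeR adjusted p = 0.438). The processed pseudogene Ube2n-ps1 lies inside Clock on the same strand, at 117% of the level of Clock in FPKM.

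Arntl (chromosome 7, 113207465 to 113314126), which encodes the partner BMAL1, was low, with 5.43, 6.84 and 4.46 CPM at E18.5 and 7.62, 5.70 and 4.66 CPM at E16.5. The stages overlapped, and the log2 change was -0.10 ± 0.26 (edgeR adjusted p = 0.912). Its mean of 0.705 FPKM over the 6 libraries stood above 33.0% of tested genes, and its FPKM was 0.323 of that of Clock at E18.5 and 0.452 at E16.5 (geometric means). Arntl2, a relative of Arntl, had a log2 change of 0.04 ± 0.40.

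Npas2 encodes a relative of CLOCK that can stand in for it beside BMAL1 (chromosome 1, 39193731 to 39363236). It had 16.2, 12.0 and 12.0 CPM in the E18.5 libraries, against 5.96, 7.20 and 6.15 CPM in the E16.5 libraries. The lowest E18.5 library was well above the highest E16.5 library. Npas2 had a log2 change of 1.06 ± 0.19, with an interval of 0.62 to 1.49. It failed the correction in edgeR (adjusted p = 0.136). It passed in DESeq2 (adjusted p = 8.82e-04), with the mitochondrial share as a term (adjusted p = 0.0449) and without E16.5 replicate 2 (adjusted p = 0.0429), and over the other alternatives the adjusted p reached 0.470. The FPKM of Npas2 was 1.54, 1.12 and 1.07 times that of Clock in the E18.5 libraries, against 0.729, 0.764 and 0.840 times in the E16.5 libraries. Npas2 thus lay above Clock in every E18.5 library and below it in every E16.5 library, a description that was not tested. The gene Gm3617 lies inside Npas2 on the same strand, at 34.4% of the FPKM of Npas2.

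The Per genes encode the PERIOD repressors, and Per1 and Per2 are also induced directly by hormones and other acute signals. Per2 (chromosome 1, 91415982 to 91459324) had 74.9, 84.8 and 92.4 CPM at E18.5, against 62.1, 58.4 and 64.4 CPM at E16.5. The stages did not overlap. Per2 had a log2 change of 0.45 ± 0.13, with an interval of 0.15 to 0.75, and the smallest p among the clock genes (unadjusted 0.00819, edgeR adjusted p = 0.336). Per1 (chromosome 11, 69095217 to 69109960) had 67.4, 63.1 and 65.9 CPM at E18.5, against 54.5, 48.9 and 60.7 CPM at E16.5. These ranges were apart by less than those of Per2, and the log2 change was 0.26 ± 0.13 (edgeR adjusted p = 0.558).

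Per3, the least abundant of the PERIOD genes (chromosome 4, 151003652 to 151044665), had 24.4, 24.4 and 28.0 CPM at E18.5, against 35.9, 24.2 and 22.0 CPM at E16.5. Replicate 1 of E16.5 was the highest library, and the other 5 ran from 22.0 to 28.0 CPM. The log2 change was -0.10 ± 0.20 (edgeR adjusted p = 0.891), and without E16.5 replicate 1 it was 0.14. Per3 lies whole inside Camta1 on the same strand, a gene at 196% of its FPKM.

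The cryptochromes are the stronger repressors of the CLOCK and BMAL1 pair. Cry1 (chromosome 10, 85131700 to 85185064) had 20.1, 21.0 and 22.3 CPM at E18.5, against 13.1, 19.2 and 13.4 CPM at E16.5. The E18.5 libraries were all higher, although E16.5 replicate 2 came close to them. The log2 change was 0.47 ± 0.18, with an interval of 0.05 to 0.89 (edgeR adjusted p = 0.464). Without E16.5 replicate 2 it was 0.67, and the adjusted p was 0.0517, the lowest that any clock gene reached in any alternative. Over its alternatives the adjusted p of Cry1 ran up to 0.977.

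Cry2 (chromosome 2, 92403646 to 92434043) had 13.3, 10.8 and 12.4 CPM at E18.5, against 13.8, 13.04 and 15.1 CPM at E16.5. The stages overlapped, and the log2 change was -0.20 ± 0.15 (edgeR adjusted p = 0.702). The noncoding gene D930015M05Rik overlaps Cry2 on the other strand, at 0.227% of its FPKM.

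Related genes were also compared as ratios of FPKM within each library, for 6 pairs. Cry1 stood at 2.85, 3.67 and 3.41 times the FPKM of Cry2 at E18.5, against 1.79, 2.79 and 1.68 times at E16.5. Per2 stood at 5.04, 5.71 and 5.43 times that of Per3 at E18.5, against 2.84, 3.96 and 4.80 times at E16.5. In both pairs the stages did not overlap, and the ratio was 1.62-fold higher at E18.5 for Cry1 over Cry2 and 1.42-fold higher for Per2 over Per3. Each gave the smallest p that 3 libraries against 3 allow, 0.1 in a two-sided exact permutation test, or 0.3 adjusted over the 6 pairs. The stages overlapped for the ratios of Per1 to Per2, Per1 to Per3, Nr1d1 to Nr1d2 and Dbp to Tef, with exact permutation p from 0.3 to 0.5.

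**Figure D3:**
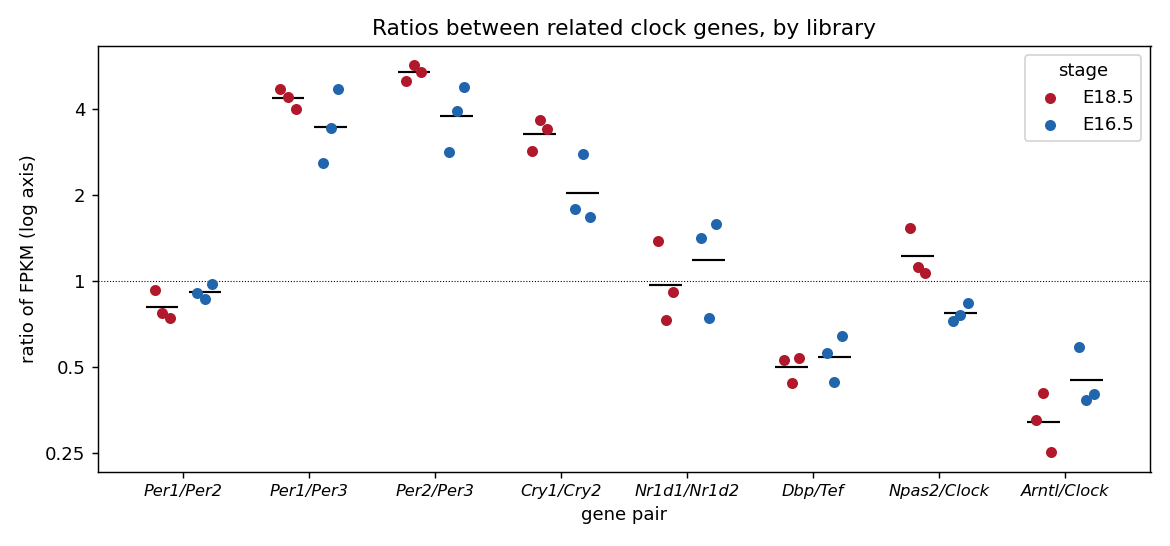
Ratios of FPKM between related clock genes in each library, on a log axis. Points are libraries, red for E18.5 and blue for E16.5, black bars are geometric means, and the dotted line marks equal FPKM. Npas2 lay above Clock in the E18.5 libraries and below it in the E16.5 libraries.

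The REV-ERB gene Nr1d1 (chromosome 11, 98767932 to 98775333) varied more between libraries than any other of the 10 genes, with 1.99-fold between the highest and the lowest library in CPM. It had 26.1, 17.4 and 21.3 CPM in the E18.5 libraries, against 34.2, 17.7 and 34.7 CPM in the E16.5 libraries. Replicate 2 of E16.5 lay with the E18.5 libraries, so the stages overlapped. The log2 change was -0.42 ± 0.27, with an interval of -1.03 to 0.20 (edgeR adjusted p = 0.650). The 3 highest values came from the 3 libraries with a mitochondrial share above 30% (E18.5 replicate 1, E16.5 replicates 1 and 3). With that share as a term the log2 change was -0.19, and without E16.5 replicate 2 it was -0.67, with neither passing.

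The 3′ end of Nr1d1 overlaps that of Thra, the thyroid hormone receptor gene on the other strand, by 1075 bases. Thra was listed at 495% of the FPKM of Nr1d1, and it had 189, 141 and 148 CPM at E18.5, against 226, 164 and 242 CPM at E16.5. Its order of libraries resembled that of Nr1d1. The libraries keep strand, but the sources used here do not state that the counting used it, so reads of this overlap cannot be told apart. The counts of both genes summed gave a log2 change of -0.40 (edgeR adjusted p = 0.559). Thra alone had a log2 change of -0.40 ± 0.19 (edgeR adjusted p = 0.549). With 9900 to 16602 counts per library, against 1227 to 2385 for Nr1d1, Thra makes up most of the sum. The sum therefore cannot show what shared reads add to Nr1d1.

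Nr1d2, the second REV-ERB gene (chromosome 14, 18204054 to 18239127), was steadier, with 33.3, 41.9 and 40.9 CPM at E18.5, against 42.3, 41.8 and 38.5 CPM at E16.5. Only E18.5 replicate 1 stood apart, below the rest, and the log2 change was -0.08 ± 0.13 (edgeR adjusted p = 0.868). Rora, a gene for an activating ROR receptor, was at 5.93, 6.89 and 8.78 CPM at E18.5, against 5.34, 5.93 and 4.27 CPM at E16.5, with a log2 change of 0.48 ± 0.23 (edgeR adjusted p = 0.550). Rorb was under 1 CPM in each library.

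Dbp encodes the D-box activator whose RNA has among the widest daily swings in adult tissues (chromosome 7, 45705088 to 45710203). It had 15.3, 13.1 and 16.4 CPM in the E18.5 libraries, against 18.3, 11.7 and 18.6 CPM in the E16.5 libraries. As with Nr1d1, E16.5 replicate 2 was below the other libraries of its stage and the stages overlapped. Dbp had a log2 change of -0.12 ± 0.21 (edgeR adjusted p = 0.867). Dbp overlaps the sphingosine kinase gene Sphk2 on the other strand by 737 bases. Sphk2 was at 86.5% of its FPKM, and Sphk2 alone had a log2 change of 0.39 ± 0.14, higher at E18.5 without overlap. Both summed gave a log2 change of 0.15, opposite in sign to Dbp alone. That sum holds all reads of Sphk2, so it cannot show what the shared bases add to Dbp.

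Tef, a second D-box activator (chromosome 15, 81802421 to 81826863), had 75.2, 77.5 and 79.3 CPM at E18.5, against 85.6, 69.1 and 76.0 CPM at E16.5. Its highest library exceeded its lowest by 1.24-fold, the narrowest range of the 10 genes, and the log2 change was 0.008 ± 0.13, with an interval of -0.29 to 0.30. Hlf, the third activator of this family, had a log2 change of -0.02 ± 0.16, and the D-box repressor Nfil3 one of -0.06 ± 0.18. Both overlapped between stages.

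**Figure D4:**
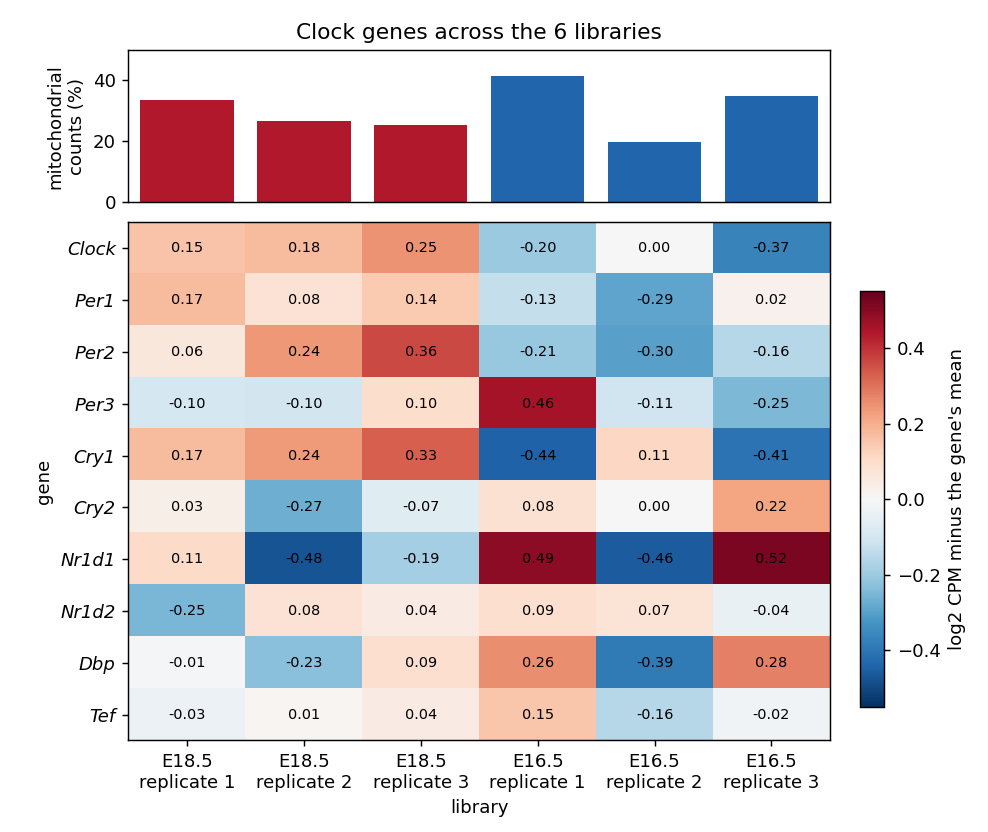
Lower panel: log2 CPM of each clock gene minus its mean over 6 libraries, in colour and as printed values. Upper panel: percent of counts from mitochondrial genes in each library, red for E18.5 and blue for E16.5. Nr1d1 was highest in the 3 libraries with a share above 30%, and Clock, Per1, Per2 and Cry1 were above their own mean in each E18.5 library.

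Differences were also taken on either side of a mitochondrial share of 30%, where the sign for the 4 clock genes without overlap is fixed by that lack of overlap and only the size can vary. Above it, with E18.5 replicate 1 against E16.5 replicates 1 and 3, the difference in log2 CPM was 0.44 for Clock, 0.23 for Per1, 0.25 for Per2 and 0.60 for Cry1. Below it, with E18.5 replicates 2 and 3 against E16.5 replicate 2, the difference was 0.22 for Clock, 0.40 for Per1, 0.60 for Per2 and 0.17 for Cry1. For Dbp the difference was -0.27 above and 0.32 below, and for Nr1d1 it was -0.40 above and 0.13 below. Per3 (-0.20 above, 0.11 below) and Tef (-0.10 above, 0.18 below) also changed sign. Cry2 (-0.12 above, -0.17 below) and Nr1d2 (-0.28 above, -0.01 below) did not. Each of these values rests on a single library at one of the stages, so none of them was tested.

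Of the 10 genes, Nr1d1 and Cry1 had the widest ranges in log2 CPM, and 5421 genes with a mean of at least 5 FPKM were searched for the same pattern over the 6 libraries. After each gene's mean was subtracted, the genes nearest to Nr1d1 were Spata24, Cmc4, Akap8l and Dxo, with root mean square differences of 0.0442 to 0.0710 on the log2 scale. Spata24, for example, had 15.6, 10.4 and 11.9 CPM at E18.5, against 19.95, 9.86 and 19.3 CPM at E16.5. The genes nearest to Cry1 were Mxra8, Stk39, Sod2 and Cox4i1, at 0.0392 to 0.0468. Stk39 had 116, 125 and 127 CPM at E18.5, against 74.3, 106 and 73.7 CPM at E16.5.

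**Figure D5:**
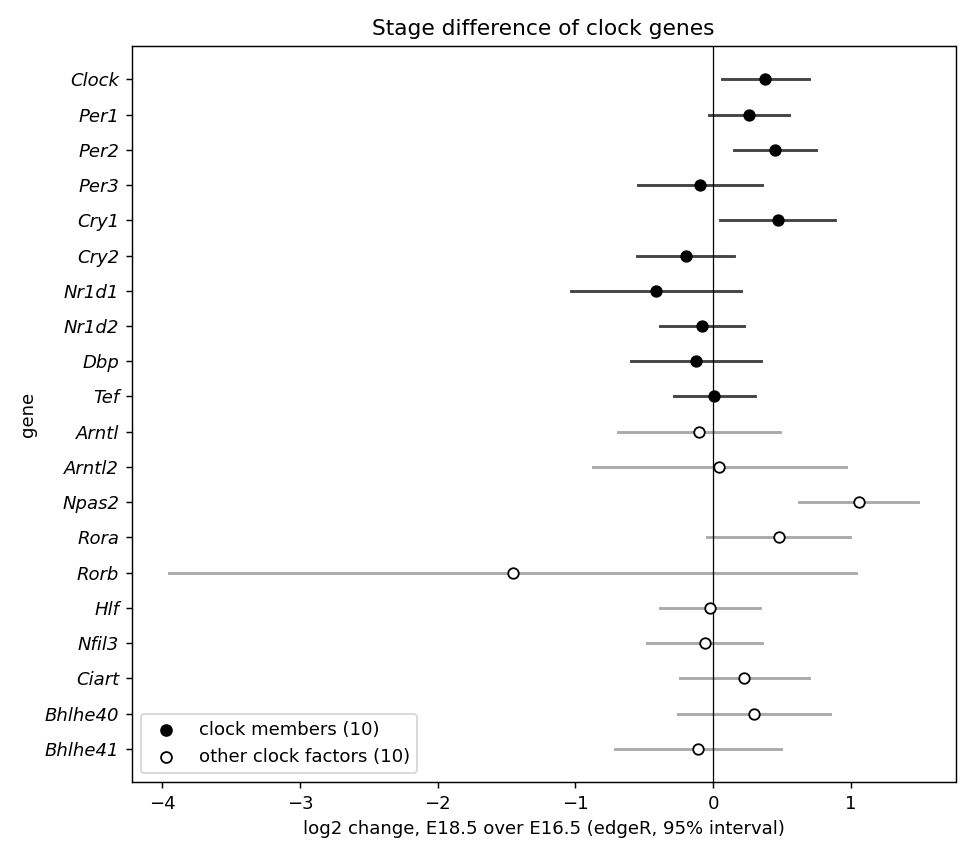
Log2 change of CPM, E18.5 over E16.5, with 95% intervals from the edgeR fit, for the 10 clock genes (filled) and 10 other clock factors (open). The intervals of Clock, Per2, Cry1 and Npas2 lie above 0, and none of these 20 genes passed after adjustment over all genes. Rorb was under 1 CPM in each library.

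Other repressors of CLOCK and BMAL1 showed no adjusted call. Ciart, which encodes a repressor with strong daily rhythm, had a log2 change of 0.23 ± 0.21, Bhlhe40 one of 0.30 ± 0.24 and Bhlhe41 one of -0.11 ± 0.26. Among 19 genes for kinases, ubiquitin ligases and other regulators of the clock proteins, 5 had a higher and 14 a lower mean at E18.5, with a median log2 change of -0.08, and 0 passed in edgeR, adjusted or unadjusted. That split rests on the scaling, since with library size only 10 were higher and 9 lower, and on log2(FPKM + 0.1) 12 were higher and 7 lower. Those with the smallest p were Btrc (-0.55 ± 0.25), Csnk1e, a kinase that marks PER proteins for breakdown (-0.29 ± 0.14), Fbxw11 (0.49 ± 0.26) and Fbxl21 (-1.34 ± 0.73, at or below 1.17 CPM). Csnk1e had 63.4, 56.4 and 64.95 CPM at E18.5, against 83.4, 65.0 and 76.9 CPM at E16.5.

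Among 18 genes known to follow the clock in adult heart or in many tissues, 12 had a higher and 6 a lower mean at E18.5, with a median log2 change of 0.17 and 0 adjusted calls in edgeR. The 3 that passed without adjustment, where 9.53% of all tested genes did, were Klf9, Kcnip2 and Por, all higher. Klf9 is also among the glucocorticoid-induced genes. Kcnip2, which encodes a subunit of the transient outward potassium channel and is rhythmic in adult mouse heart, had 37.8, 28.4 and 47.7 CPM at E18.5, against 22.6, 17.3 and 18.3 CPM at E16.5. The stages did not overlap, and the log2 change was 0.97 ± 0.21 (edgeR adjusted p = 0.185, and from 0.00365 in DESeq2 to 0.579 over the alternatives). Klf15, the factor placed between the clock and Kcnip2 in adult mouse heart, had a log2 change of 0.21 ± 0.15 with overlapping stages. Por had one of 0.49 ± 0.15 (edgeR adjusted p = 0.343), and Cdkn1a one of 0.48 ± 0.21.

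Signals that induce Per1 directly were followed through other genes they induce. Of 10 glucocorticoid-induced genes, 8 had a higher and 2 a lower mean at E18.5, with a median log2 change of 0.82. None passed after adjustment in edgeR (lowest adjusted p = 0.0525, Sgk1), 7 passed unadjusted, against 9.53% of all tested genes, and DESeq2 called 4 (Sgk1, Zbtb16, Klf9 and Fkbp5), against 1.58% of the 21718 genes it gave an adjusted p. Their log2 changes were 1.204 ± 0.17 for Sgk1, 2.18 ± 0.34 for Zbtb16, 1.09 ± 0.22 for Klf9 and 0.87 ± 0.19 for Fkbp5, beside 0.26 for Per1. Over the alternatives their adjusted p reached 0.405, 0.346, 0.542 and 0.741 in that order. Tsc22d3 (0.09), Mt2 (-0.12) and Pdk4 (-0.11) of the same list changed little and overlapped between stages. Of 12 immediate early genes, 9 had a higher and 3 a lower mean, with a median of 0.12, 0 adjusted calls in edgeR and 3 unadjusted, against the same 9.53% of all tested genes. Egr1 had a log2 change of 0.92 ± 0.27, Fosb one of 1.44 ± 0.52, Dusp1 one of 0.45 ± 0.15 and Jun one of -0.24 ± 0.13. The part of these signals in the Per1 and Per2 values was not tested.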

How the data were processed

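Per the labels' protocols, polyadenylated RNA of fetal hearts was sequenced from libraries that keep strand. The authors deposited 1 table of 31529 genes with an estimated count and an FPKM value per gene and library. Tools named, without a role, are StringTie 1.3.4d, HISAT2 2.0.4, cutadapt 1.9 and UMI-tools, and the build named is mm9, per the submitters' processing notes. Per the file headers, the columns are counts and FPKM. The estimated counts are whole numbers as deposited, so no rounding was needed. The deposited coordinates are not printed. Positions come from GENCODE release M21 (GRCm38) by Ensembl identifier, an annotation that did not make the counts, and start windows come from RefSeq (GRCm38.p6).

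The stage comparison used the two-sided quasi-likelihood test of edgeR 4.0.16 (R 4.3.3) on the 19959 genes that passed filterByExpr, all 10 clock genes among them. Stage was the only term, and scaling was by TMM. P-values were adjusted over all tested genes by the Benjamini-Hochberg method. The SE is the absolute log2 change over the square root of F. CPM values use TMM-scaled library sizes. Alternatives used limma 3.58.1, DESeq2 1.42.0, other scaling, filters, a mitochondrial term, FPKM with pseudocounts of 0.1 and 1, and each library left out. Sums with overlapping genes were chosen after seeing the data. The named genes were the 10 clock genes, 10 other clock factors and up to 4 genes with the smallest p in each of 4 further lists. Klf15, Tsc22d3, Mt2, Pdk4 and the single cell type markers, Scgb1a1 among them, were named after their values were seen. The clock genes and lists were chosen with earlier results of these data known. Whether libraries came from separate animals is not stated, so p-values measure the spread between these libraries. A further clock factor was left out and is not reported here.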

Additional observations from a re-analysis of the deposited data

How the results depend on the processing

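No clock gene passed after adjustment in any of the 18 alternatives, and Clock, Per1, Per2, Cry1, Cry2 and Nr1d1 kept the sign of their log2 change in all of them. The count of changed genes over the whole table was 30, and it was 343 with DESeq2, 184 with the mitochondrial share as a term, 18 and 10 with limma on FPKM at pseudocounts of 0.1 and 1, 12 with library size only, and 8 to 371 with a library left out, 371 without E16.5 replicate 2. With the replicate number as a block it was 43. Deviations of same-numbered libraries correlated at 0.102, 0.185 and -0.066, and not every library correlated best with its own number. With 3 libraries per stage, these values cannot show whether a shared number marks a litter or a day.

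Genes with small changes changed sign, and the cause was not tested. On log2(FPKM + 0.1) the log2 change was 0.039 for Per3, 0.023 for Nr1d2, 0.008 for Dbp, 0.006 for Arntl, 0.075 for Hlf and 0.040 for Nfil3. On log2(FPKM + 1) it was 0.027 for Per3, 0.020 for Nr1d2, 0.008 for Dbp, 0.002 for Arntl, 0.040 for Hlf and 0.030 for Nfil3. With library size only it was 0.017 for Per3, 0.007 for Nr1d2, 0.046 for Hlf and 0.003 for Nfil3. Tef was at -0.023 with upper-quartile scaling, -0.002 without mitochondrial genes and -0.001 with the stricter filter, which asks for 50 counts in 3 libraries. Dbp was at 0.011 with the mitochondrial term. Summed with Sphk2 it was at 0.154, a value that includes the change of Sphk2 itself. With a library left out, the log2 change ran from -0.24 to 0.138 for Per3, -0.139 to 0.011 for Nr1d2, -0.062 to 0.083 for Tef, -0.277 to 0.097 for Arntl, -0.316 to 0.309 for Arntl2, -0.074 to 0.033 for Hlf, -0.187 to 0.036 for Nfil3 and -0.246 to 0.084 for Bhlhe41. The difference in the log2 ratio of Dbp to Tef ran from -0.257 to 0.00814.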
